A study of Mus musculus with 5 samples.

Results

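The cells described here are the mesenchymal cells of 2 single-cell libraries, both sorted from mouse liver as vitamin A-negative and Col1a1-positive (VitA-Col1a1+). They set liver given diethyl nitrosamine and a Western alcohol diet (DEN+WAD) against chow-fed control liver. A barcode was kept when it held at least 2000 UMIs (unique molecular identifiers, each standing for 1 captured RNA molecule). Dcn, Col3a1 and Colec11, genes of liver mesenchymal cells, had to make up 20 or more of every 10000 of its UMIs. It also had to hold 0 UMIs of Pecam1, Ptprc and Epcam, which mark endothelial, immune and epithelial cells. This rule kept 2062 of 2729 barcodes (75.6%) in DEN+WAD and 590 of 668 (88.3%) in chow, together 2652 of the 24007 barcodes in 5 libraries.

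Both groups were male Rosa26mTmG;Col1a1-Cre mice on C57BL/6J. In these mice a red membrane protein gives way to a green one in any cell in which the Col1a1 promoter has driven Cre, and in the descendants of that cell. DEN+WAD mice received DEN, a liver carcinogen, at 10 mg/kg when 2 weeks old, and from 6 weeks of age drank a liquid Western diet with 3.5% (v/v) ethanol for 5 months. Control mice received saline and ate chow over the same time. Non-parenchymal cells were sorted for the green protein and against the ultraviolet autofluorescence of stored vitamin A, and each library aimed at 10000 cells. The number of mice behind a library is not given in the sources used here. Each group was 1 library, so no difference below has a replicate check, no p-value was computed, and every 95% interval covers counting error only. The same contrast in the vitamin A-positive gate (VitA+Col1a1+) is set beside it where that gate held matching cells, and the DEN+WAD libraries of both gates shared 12 kept barcodes. A further DEN+WAD library, sorted as VitA-Col1a1-, was used only for the share of ribosomal features.

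Hepatic stellate cells are the vitamin A-storing pericytes of the liver sinusoid, and they take on a matrix-producing state when the liver is injured. Portal fibroblasts surround the bile ducts and portal vessels, and vascular smooth muscle cells form the walls of portal vein branches and arteries. All of these cells can make collagen, so a Col1a1 reporter marks them together, and loss of the vitamin A signal does not by itself separate them.

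The first question was which cells the 2 libraries held. The labels name both as hepatic stellate cells, but the marker genes divided them differently. Cells were classed by summed marker lists: 18 stellate genes (such as Reln, Ecm1, Colec10 and Hgf), 18 portal fibroblast genes (such as Clec3b, Pi16, Dpt and Igfbp6) and 8 smooth muscle genes (such as Myh11, Actg2 and Pln). A cell with 6 or more smooth muscle UMIs per 10000 was a smooth-muscle-marker cell. The others were stellate-marker cells when the stellate list made up at least 0.8 of the stellate and fibroblast sum, fibroblast-marker cells when it made up at most 0.2, and in-between cells otherwise. These thresholds, the smooth muscle class and the removal of 3 list genes found in other cells (Rgs5, Rasl11a and Ntrk2) were chosen after the values were seen, so the classes are ranges, not cell types. Within 0.05 of the lower threshold lay 105 DEN+WAD and 89 chow cells, within 0.05 of the upper one 190 and 5, and within 1 UMI per 10000 of the smooth muscle threshold 65 and 51.

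In DEN+WAD, 991 of 2062 cells (48.1%, exact binomial 95% interval 45.9 to 50.2%) were stellate-marker cells, against 31 of 590 (5.25%, 3.60 to 7.38%) in chow. Fibroblast-marker cells were 390 (18.9%, 17.2 to 20.7%) in DEN+WAD and 270 (45.8%, 41.7 to 49.9%) in chow. Smooth-muscle-marker cells were 225 (10.9%, 9.60 to 12.3%) and 201 (34.1%, 30.2 to 38.05%), and in-between cells were 456 (22.1%, 20.3 to 24.0%) and 88 (14.9%, 12.1 to 18.0%). The chow library was thus made up mostly of fibroblast-marker and smooth-muscle-marker cells, while stellate-marker cells were the largest class of the DEN+WAD library. In the VitA+Col1a1+ gate nearly all kept cells were stellate-marker cells, 9750 of 9997 (97.5%) in DEN+WAD and 230 of 232 (99.1%) in chow. How many cells of each kind entered a library also depends on the sort, so a share is not a measure of how many such cells the liver held.

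**Figure D1:**
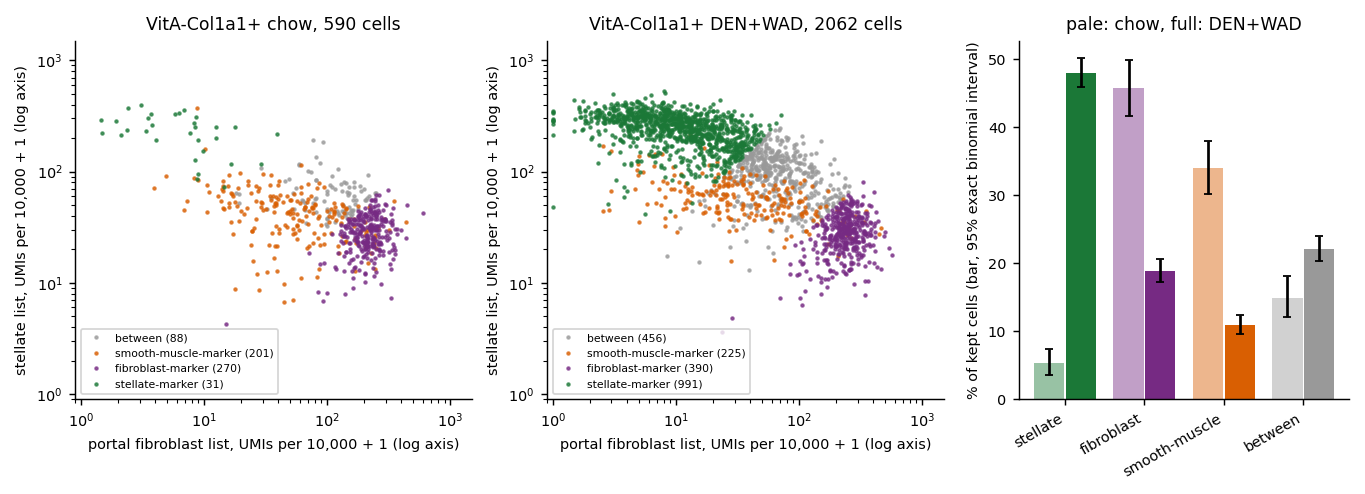
Each point is 1 kept cell, placed by its summed portal fibroblast list (x axis) and stellate list (y axis) in UMIs per 10000 plus 1, on log axes, for both VitA-Col1a1+ libraries; the bars give the share of kept cells in each class with exact binomial 95% intervals. The stellate-marker class held 48.1% of DEN+WAD and 5.25% of chow cells, and the fibroblast-marker class 18.9% and 45.8%.

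The kept cells carried 38191564 UMIs in DEN+WAD (median 17610 per cell, 4269 genes) and 13625313 in chow (median 22520, 4984 genes). They shared 0 barcodes. Mitochondrial RNA made up 2.83% and 2.97% of UMIs and ribosomal protein genes 12.7% and 12.9%. The features Gm42418 and AY036118, which overlap ribosomal RNA, made up 0.588% in DEN+WAD and 2.20% in chow, and 0.658% and 2.24% in the 2 VitA+Col1a1+ libraries, so they were lower in DEN+WAD in both gates. In the VitA-Col1a1- library, also DEN+WAD, they made up 2.09%, close to the chow libraries. That library came from another gate, and its counts were made with version 6.1.2 of the counting program Cell Ranger, against 3.1.0 for the others. The part of treatment, gate or version in these shares was not tested. Summed markers of cells outside the rule were low in both libraries: hepatocyte genes reached 304 and 330 CPM (counts per 1000000 UMIs of the library or class), macrophage genes 15.6 and 29.1, cholangiocyte genes 10.7 and 5.43, neutrophil genes 1.41 and 2.42, lymphocyte genes 1.15 and 1.25, and erythroid genes 0.105 and 0.147. Of 13 macrophage genes, 4 were at 0 in DEN+WAD and 8 in chow. The sinusoidal endothelial list summed to 1008 CPM in DEN+WAD and 551 in chow, and 2 of its 5 measured members were past 2-fold higher, among them Clec4g (5.21 CPM in chow, 19.5 in DEN+WAD). The part of this RNA in the differences below was not tested. A gene was counted as measured in a set of cells when its mean over both libraries was at least 10 CPM. Of 8 mesothelial genes only Wt1 was measured, at 17.1 CPM in chow and 33.2 in DEN+WAD.

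Summed over all kept cells, the genes with the highest ratio in DEN+WAD included genes of the sinusoidal stellate cell. Fcna, a ficolin lectin, was at 49.6 CPM in chow and 800 in DEN+WAD, a ratio of 16.1 (14.9 to 17.4). Gdf2, which encodes the endothelial ligand BMP9, was at 44.8 and 339 (ratio 7.56), and Rspo3, a Wnt enhancer, at 82.3 and 529 (6.43). Reln, which encodes reelin, was at 101 and 592 (5.88), and the matrix gene Ecm1 at 851 and 4631 (5.44). The genes with the lowest ratio included smooth muscle and fibroblast genes. Among them Igfbp5, an insulin-like growth factor binding protein, was at 363 CPM in chow and 76.4 in DEN+WAD (0.210), the smooth muscle myosin Myh11 at 459 and 98.0, and the collagen gene Col6a5 at 468 and 112. Of 8364 genes with a mean of at least 10 CPM, 200 (2.39%) had a DEN+WAD level at least 2-fold above that of chow and 349 (4.17%) one at least 2-fold below, with a median log2 ratio of -0.08. Under TMM scaling, which divides by a trimmed mean of the ratios, 261 were higher and 245 lower, so the higher genes were 51.6% of those past 2-fold in place of 36.4%. The marker lists define the classes, so their pooled values restate the class shares. Of 18 measured stellate genes 12 were past 2-fold higher (median log2 1.497). Of 14 measured portal fibroblast genes 4 were past 2-fold lower (median -0.84), as were 6 of 7 smooth muscle genes (median -1.46).

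To separate makeup from level, the chow levels of the 4 classes were weighted by the share of DEN+WAD UMIs that each class held. Stellate-marker cells held 42.1% of the UMIs in DEN+WAD and 4.35% in chow. The weighted chow levels therefore rest for 42.1% on 31 chow cells with 592764 UMIs, and values at equal makeup carry no interval. At equal makeup 64 of 8298 genes were past 2-fold higher and 119 past 2-fold lower. Of the 200 genes that were higher in the pooled sums, 41 remained (20.5%), and of the 349 lower genes 90 remained (25.8%). The log2 ratio of Fcna went from 4.01 to 0.91, Gdf2 from 2.92 to 0.51, Rspo3 from 2.68 to 0.20 and Angptl6 from 2.78 to 0.11, while Tmem56 (from 2.82 to -0.19), Reln (from 2.56 to -0.04) and Colec10 (from 2.43 to -0.49) changed sign. Rspo3, Angptl6, Tmem56, Reln and Colec10 belong to the stellate list that defines the classes, so the weighting itself draws their ratios toward 0. Fcna and Gdf2 are not in that list. The MHC class I genes H2-Q6 (from 3.78 to 1.81) and H2-Q7 (from 3.11 to 1.48) and the lower Syn3 (from -2.83 to -2.25), Col6a5 (from -2.06 to -1.50) and Igfbp5 (from -2.25 to -1.20) stayed past 2-fold. Most of the pooled differences therefore were not kept when the makeup was held equal, and the classes are described in turn.

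**Figure D2:**
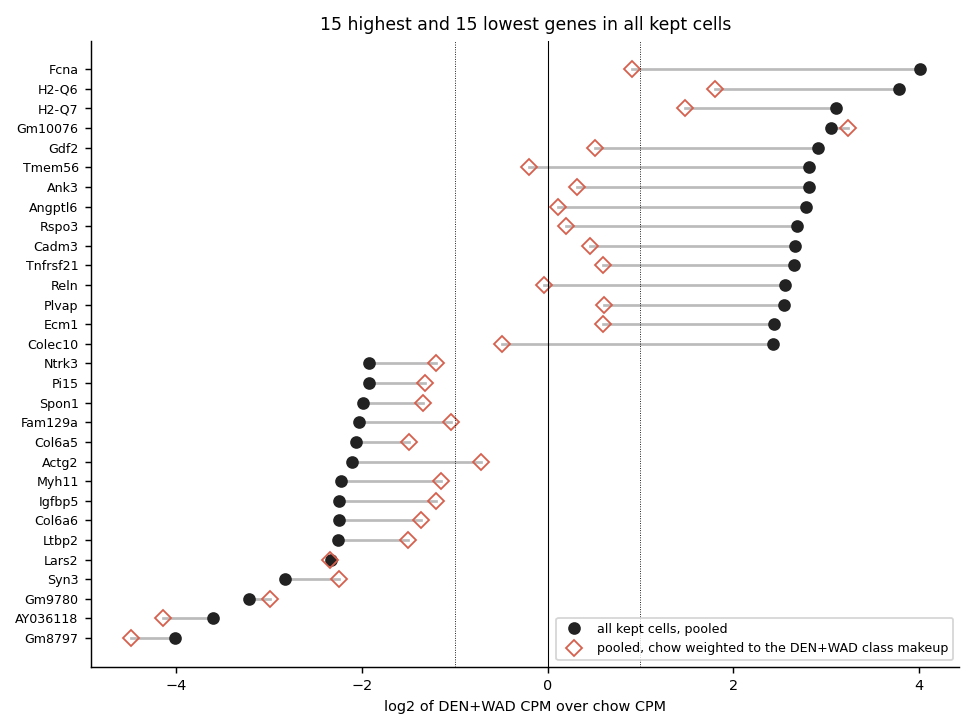
The 15 genes with the highest and the 15 with the lowest ratio in all kept cells (mean of at least 50 CPM), as log2 of DEN+WAD over chow CPM (x axis). Circles are pooled sums and diamonds the same ratio with chow weighted to the DEN+WAD class makeup. Fcna moves from 4.01 to 0.91, while H2-Q7 stays at 1.48. Reln, a stellate list gene that helps define the classes, moves from 2.56 to -0.04.

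Fibroblast-marker cells were the class with most chow cells (270, against 390 in DEN+WAD), and they had the fewest genes past 2-fold of the 4 classes. Of 8225 genes measured there, 58 were higher past 2-fold (0.705%) and 94 lower (1.14%), with a median log2 ratio of -0.08. With TMM scaling the counts were 72 and 73. Angptl4 (ENSMUSG00000002289; chr17:33773750-33781830, minus strand), a secreted inhibitor of lipoprotein lipase, was at 15.3 CPM in chow and 132 in DEN+WAD, a ratio of 8.62 (7.02 to 10.7). H2-Q7 (ENSMUSG00000060550; chr17:35439155-35443773, plus strand) was at 35.3 and 208 (5.90, 5.14 to 6.80). The inducible chaperones Hspa1a (259 and 874 CPM, 3.37) and Hspa1b (264 and 836, 3.16) are near-identical copies, so how reads fell between them is uncertain. Cebpd (ENSMUSG00000071637; chr16:15887286-15891031, plus strand), an acute phase transcription factor, was at 327 and 1032 (3.16, 3.01 to 3.31), the small membrane protein gene Fxyd6 at 77.0 and 229 (2.97), and the metallothionein Mt2 at 64.9 and 187 (2.88, 2.58 to 3.21). Gstp1 (3.92) and Gm10076 (9.02) also had high ratios but have near-identical copies in the genome and are uncertain.

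The lowest ratios of the fibroblast-marker cells included a gene of lipid synthesis. Scd2 (ENSMUSG00000025203; chr19:44293674-44306864, plus strand), a desaturase that makes monounsaturated fatty acids and the gene the study deleted in other mice, was at 91.8 CPM in chow and 30.6 in DEN+WAD (0.333, 0.286 to 0.387). The synapsin gene Syn3 was at 88.2 and 19.2 (0.218), and the endothelial early-response gene Apold1 at 77.1 and 29.9 (0.387). The non-coding Gm26669 (98.4 and 31.2) and Adap2os (84.2 and 32.3) were lower as well. Lars2 (724 and 137), Gm42418 (19120 and 5189), AY036118 and Gm8797 were lower too, but they share sequence with ribosomal RNA or other copies and move with the ribosomal features given above.

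Smooth-muscle-marker cells (225 in DEN+WAD, 201 in chow) had 87 of 8311 genes at least 2-fold higher (1.05%) and 238 at least 2-fold lower (2.86%), at a median log2 ratio of -0.06. With TMM scaling the counts were 116 and 174. With a smooth muscle minimum of 12 UMIs per 10000 they were 156 and 363, over 106 DEN+WAD and 125 chow cells. The genes of this class are named by the rule used for the other classes, which was extended to it after the values were seen. The monocyte chemokine Ccl2 was at 28.8 CPM in chow and 214 in DEN+WAD, a ratio of 7.41 (6.14 to 8.99), and Ccl7, a related chemokine, at 31.1 and 126 (4.06, 3.36 to 4.94). Few cells held most of this RNA: 7 of the 225 DEN+WAD cells held 50% of the Ccl2 UMIs, and without the top cell of each library the Ccl2 ratio was 8.42. Hspa1b was at 433 and 1631 (3.77), H2-Q7 at 106 and 397 (3.76, 3.39 to 4.17), the G-protein regulator Rgs4 at 53.1 and 164 (3.09, 2.67 to 3.60), and Tnfrsf11b, which encodes osteoprotegerin, at 94.3 and 263 (2.79). Chemokines, chaperones and class I genes thus led this class.

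The lowest ratios of the smooth-muscle-marker cells belonged to genes of several functions. The adhesion gene Ncam1 was at 92.2 CPM in chow and 13.2 in DEN+WAD (0.144, 0.107 to 0.189), and the troponin gene Tnnt2 at 556 and 128 (0.230, 0.209 to 0.252). Igf1, a growth factor, was at 96.8 and 23.5 (0.243, 0.194 to 0.302), the matrix gene Ltbp2 at 129 and 25.3 (0.197), and Syn3 at 163 and 36.7 (0.225). In fibroblast-marker cells Ncam1 was at 131 and 114 CPM, Tnnt2 at 388 and 376 and Igf1 at 204 and 187, and whether the classes differed was not tested. The smooth muscle markers themselves summed to 2538 CPM in chow and 1692 in DEN+WAD in this class, so the level of the markers that chose the class differed between the libraries.

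Stellate-marker cells could be compared only against the 31 chow cells, whose 592764 UMIs leave wide intervals. Of 7912 genes, 224 were higher past 2-fold (2.83%) and 262 lower (3.31%), with a median log2 ratio of -0.03. With TMM scaling the counts were 275 and 210. Cxcl10, an interferon-induced chemokine, was at 10.1 CPM in chow (6 UMIs) and 189 in DEN+WAD, a ratio of 18.7 (8.59 to 51.0). Ctgf (ENSMUSG00000019997; chr10:24595442-24598683, plus strand), a matricellular target of TGF-beta and YAP, was at 94.5 and 516 (5.46, 4.20 to 7.24), and Thbs1, which encodes thrombospondin-1, at 79.3 and 218 (2.75, 2.06 to 3.75). The cell cycle inhibitor Cdkn1a was at 77.6 and 223 (2.88, 2.15 to 3.94), the early-response gene Ier5 at 59.0 and 165 (2.79), Emp1 at 16.9 and 89.9 (5.33) and Fam180a at 16.9 and 94.2 (5.59). Emp1 and Fam180a stood on 10 chow UMIs each.

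The same contrast in the VitA+Col1a1+ gate, over 9750 DEN+WAD and 230 chow stellate-marker cells, gave 59 of 7926 genes higher past 2-fold (0.744%) and 124 at least 2-fold lower (1.56%). There Ctgf was at 155 and 282 CPM (1.82), Cdkn1a at 83.3 and 141 (1.69), Cxcl10 at 87.6 and 215 (2.46), Emp1 at 15.8 and 32.0 (2.02) and Fam180a at 3.77 and 12.6 (3.34), all above 1. Thbs1 (139 and 130) and Ier5 (106 and 105) were not higher there. Ctgf, Cdkn1a, Cxcl10, Emp1 and Fam180a thus had ratios above 1 in both gates, at different sizes.

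Among the lowest genes of the stellate-marker cells, the pericyte genes Vtn (488 CPM in chow, 72.4 in DEN+WAD, 0.149) and Notch3 (125 and 23.6, 0.189) did not have low ratios in the VitA+ gate (1.34 for Vtn and 1.24 for Notch3). For Vtn, 1 of the 31 chow cells held 143 of the 289 UMIs, and without the top cells the ratio was 0.271. Cyp2e1, a hepatocyte enzyme, was at 116 and 28.8 CPM, and 1 chow cell held 39 of its 69 UMIs (ratio 0.510 without the top cells). Gdpd3 (ENSMUSG00000030703; chr7:126766334-126775649, plus strand), a lysophospholipase D, was at 113 CPM in chow and 2.55 in DEN+WAD, a ratio of 0.0226 (0.0149 to 0.0338), and in the VitA+ gate at 106 and 1.38. Of these, Gdpd3 was low in DEN+WAD in both gates.

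In-between cells (456 and 88) had 175 of 8361 genes at least 2-fold higher (2.09%) and 391 at least 2-fold lower (4.68%). Since they span the range between the lists, their makeup can differ between libraries: 7 of 18 measured stellate genes were past 2-fold higher and 6 of 14 portal fibroblast genes past 2-fold lower. They are not described further by gene.

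Of 7320 genes measured in the stellate-, fibroblast- and smooth-muscle-marker cells, 11 were higher past 2-fold in each of them (0.150%) and 25 lower (0.342%). The higher genes were Angptl4, H2-Q6, H2-Q7, Zbtb16, Mt2, Cebpd and genes with near-identical copies (among them Gstp1, Rpl29 and Nme2), with the non-coding Gm10076. Angptl4 had log2 ratios of 3.94, 3.11 and 2.61 in stellate-, fibroblast- and smooth-muscle-marker cells and 4.49 in the VitA+ gate. Its stellate value stood on 3 chow UMIs, for a ratio of 15.4 (5.24 to 74.5), while the VitA+ gate gave 22.4 (16.1 to 32.2). Zbtb16 (ENSMUSG00000066687; chr9:48654297-48836222, minus strand), a zinc finger repressor induced by glucocorticoids, was at 28.7 and 77.2 CPM in fibroblast-marker cells (2.69), 12.4 and 39.5 in smooth-muscle-marker cells (3.19) and 2.01-fold higher in the VitA+ gate. Cebpd had log2 ratios of 1.13, 1.66 and 1.22, and 1.21 in the VitA+ gate. Of the 11 genes, 6 were past 2-fold higher in the VitA+ gate also and 8 were above 0. Gstp1 (-2.37) and Nme2 (-1.71) were among those with the opposite sign there.

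The 25 lower genes were led by Gdpd3 (log2 -5.47, -4.25 and -6.05, and -6.26 in the VitA+ gate). Syn3 (-1.59, -2.20 and -2.15, and -1.27), the receptor phosphatase Ptprf (-2.73, -1.44 and -1.19, and -1.19), Col6a5 (-1.66, -1.11 and -1.63, and -2.07) and the lipid transporter Abca5 (-1.12, -1.19 and -1.44, and -1.93) are given in the same order of classes. Insig1, which holds back sterol synthesis and is itself a sterol-responsive gene, had -1.72, -1.35 and -1.79 but -0.32 in the VitA+ gate. The mitochondrially encoded mt-Atp8 (-1.64, -1.08 and -1.38) and mt-Nd6 (-1.10, -1.18 and -1.50), the ribosomal RNA features, several Gm-numbered genes and the histone gene Hist1h4d completed most of the list. In the VitA+ gate 20 of the 25 were past 2-fold lower and 25 were below 0.

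**Figure D3:**
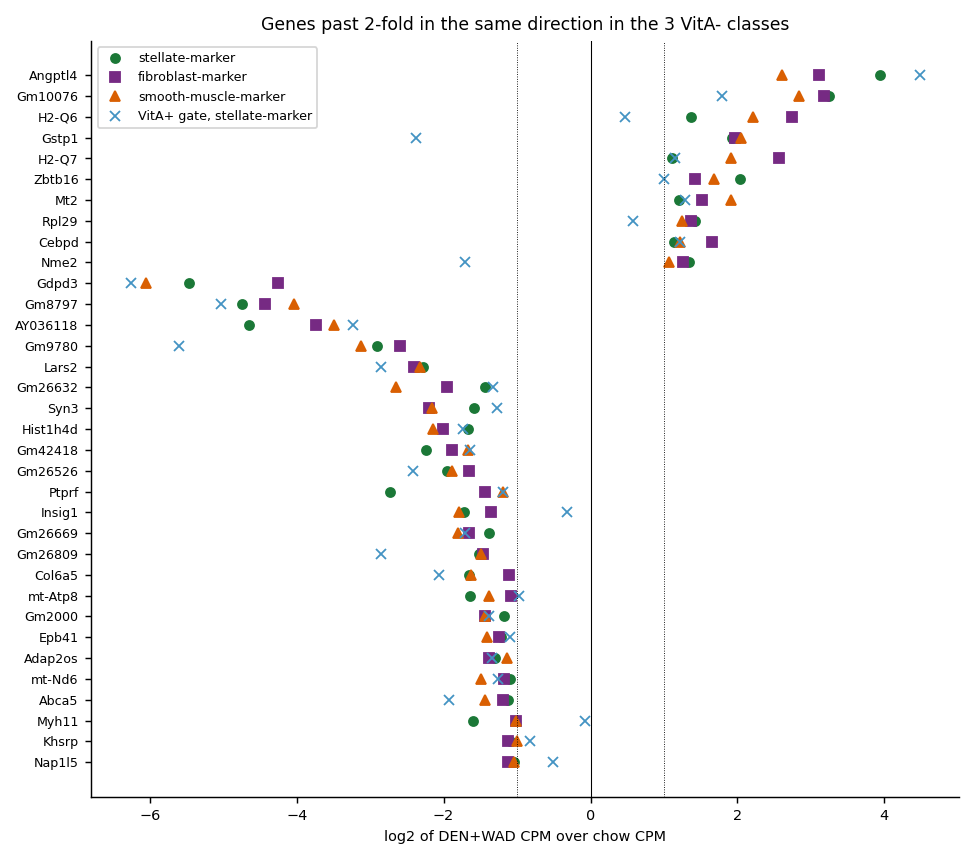
34 of the 36 genes past 2-fold in the same direction in stellate-, fibroblast- and smooth-muscle-marker cells, as log2 of DEN+WAD over chow CPM (x axis), with the VitA+Col1a1+ stellate-marker cells added for each gene. Angptl4 lies at 2.61 or more and Gdpd3 at -4.25 or less in each of the 4 comparisons, while Gstp1 is near 2 in the VitA- classes and at -2.37 in the VitA+ gate.

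The gene groups come from curated lists, whose highest and lowest members were named by rule. Other members named as examples were chosen after their values were seen. Antigen presentation was the gene group with the highest median in fibroblast-marker cells. MHC class I molecules carry peptides from inside the cell to its surface for inspection by T cells, and interferons and NF-kB raise their genes. In fibroblast-marker cells 5 of 12 measured members were past 2-fold higher and 0 lower (median log2 0.87), in smooth-muscle-marker cells 5 of 13 higher and 2 lower (0.60), in stellate-marker cells 1 of 13 higher and 3 lower (0.40), and in the VitA+ gate 1 of 10 higher and 1 lower (0.41). Over all kept cells 7 of 12 were higher (1.14). H2-K1 (ENSMUSG00000061232; chr17:33996017-34000347, minus strand) was at 806 CPM in chow and 1822 in DEN+WAD in fibroblast-marker cells (2.26, 2.19 to 2.33), 1001 and 2326 in smooth-muscle-marker cells (2.32, 2.24 to 2.41), 2728 and 4674 in stellate-marker cells (1.71, 1.63 to 1.80), and 3235 and 5347 in the VitA+ gate (1.65). Its level was highest in stellate-marker cells under both treatments, and its ratio was above 1 in each comparison.

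Other class I members followed. H2-D1 was at 1179 and 2141 CPM in fibroblast-marker, 1609 and 3257 in smooth-muscle-marker and 4747 and 6345 in stellate-marker cells. B2m, the shared light chain, was at 1856 and 3290, 2066 and 3886, and 4614 and 5684 in the same order. H2-Q4 was at 79.7 and 172 CPM in fibroblast-marker and 103 and 268 in smooth-muscle-marker cells but at 573 and 275, the other way, in the VitA+ gate. These genes are close copies of each other, so the share of UMIs given to each is uncertain. The peptide-loading genes Tap1, Tapbp, Psmb8 and Psmb9 were within 2-fold in each class, between -0.16 and 0.72 on the log2 scale. The class II genes Cd74, H2-Aa, H2-Ab1 and H2-Eb1 belong to antigen-presenting immune cells, and single cells held nearly all of the chow Cd74 UMIs in 2 of the classes. In chow stellate-marker cells 1 cell held 40 of 40 Cd74 UMIs, and in chow smooth-muscle-marker cells 1 cell held 287 of 289. Without the top cell of each library the Cd74 ratio in smooth-muscle-marker cells went from 0.142 to 6.32, and in fibroblast-marker cells, where 26 DEN+WAD cells held 404 UMIs, it was 7.92.

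The promoters of H2-K1 and H2-Q7 are shown because these genes moved together, and those of Mt2 and Hmgcs1, a higher and a lower gene described next, beside them. The sequences run 5′ to 3′ from 250 bases before to 50 after the gene start in RefSeq (GRCm38.p6). Capitals mark letters of a motif on either strand: GGGNNTTCC (kappaB) and GAANNGAAA (IRF) in the class I genes, TGCACNC or TGCGCNC (metal response element core) in Mt2, and CACNCCAC (sterol response element) in Hmgcs1. The motif letters were chosen after the sequences were seen, and a match is a description, not a binding site.

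H2-K1, chr17:34000298-34000597, minus strand: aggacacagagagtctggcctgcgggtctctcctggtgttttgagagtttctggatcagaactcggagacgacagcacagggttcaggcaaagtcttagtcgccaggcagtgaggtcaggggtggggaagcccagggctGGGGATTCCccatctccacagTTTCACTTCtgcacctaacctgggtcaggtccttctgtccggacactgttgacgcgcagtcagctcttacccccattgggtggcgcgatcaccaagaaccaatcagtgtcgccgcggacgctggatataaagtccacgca
H2-Q7, chr17:35438905-35439204, plus strand: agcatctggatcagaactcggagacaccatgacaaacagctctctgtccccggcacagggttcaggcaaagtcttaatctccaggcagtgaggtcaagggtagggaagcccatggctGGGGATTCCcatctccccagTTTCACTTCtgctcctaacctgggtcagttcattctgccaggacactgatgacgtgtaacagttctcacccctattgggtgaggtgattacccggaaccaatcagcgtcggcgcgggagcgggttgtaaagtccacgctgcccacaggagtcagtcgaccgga
Mt2, chr8:94172368-94172667, plus strand: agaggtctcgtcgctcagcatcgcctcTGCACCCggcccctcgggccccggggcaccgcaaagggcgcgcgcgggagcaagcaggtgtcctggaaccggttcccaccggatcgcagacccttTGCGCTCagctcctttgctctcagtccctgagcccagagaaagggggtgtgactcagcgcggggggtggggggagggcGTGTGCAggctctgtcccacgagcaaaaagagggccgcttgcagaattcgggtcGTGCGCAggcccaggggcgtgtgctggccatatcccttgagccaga
Hmgcs1, chr13:119690101-119690400, plus strand: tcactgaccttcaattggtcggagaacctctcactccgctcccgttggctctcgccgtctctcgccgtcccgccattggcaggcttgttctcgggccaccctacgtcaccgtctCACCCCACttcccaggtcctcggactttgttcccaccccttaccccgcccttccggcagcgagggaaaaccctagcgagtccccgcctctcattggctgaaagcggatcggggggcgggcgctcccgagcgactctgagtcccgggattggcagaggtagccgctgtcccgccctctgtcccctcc

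H2-K1 and H2-Q7 each held 1 kappaB and 1 IRF match, close together. Of all 32851 promoters of the same length, 5.82% held the kappaB letters and 7.52% the IRF letters. Of the 14 antigen presentation genes 12 had a promoter in the table, with IRF letters in 4 (H2-K1, H2-D1, H2-Q4 and H2-Q7) and kappaB letters in those and H2-Aa. Mt2 held 4 metal response cores, which 25.7% of promoters held at least once. Hmgcs1 held 1 sterol response match, found in 6.24% of promoters, and among 12 sterol list genes with a promoter Insig1 was the other with a match.

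Interferon response genes, which stand beside antigen presentation in the same pathway, had smaller ratios. In fibroblast-marker cells 0 of 24 were past 2-fold in either direction (median log2 0.20), in smooth-muscle-marker cells 2 of 22 higher (0.49), in stellate-marker cells 2 of 23 higher (0.23), in all kept cells 5 of 24 higher (0.66), and in the VitA+ gate 0 of 24 (0.33). Rtp4 was at 37.5 and 78.3 CPM in smooth-muscle-marker cells (2.09, 1.73 to 2.53) and at 25.9 and 37.2 in fibroblast-marker cells. The transcription factor Irf7 was at 25.2 and 51.3 in smooth-muscle-marker cells. Isg15 was at 464 and 656 CPM in fibroblast-marker, 516 and 825 in smooth-muscle-marker and 1004 and 1544 in stellate-marker cells. Ifit2 was lower in fibroblast-marker cells (22.8 and 13.2), within 2-fold. The medians of the list were above 0 in each set of cells, while few members reached 2-fold.

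Chemokines drew on few cells. The list had 4 of 13 members past 2-fold higher in stellate-marker cells (median log2 0.73), 4 of 13 in smooth-muscle-marker cells (0.16), 0 of 15 in fibroblast-marker cells (-0.02), 4 higher and 1 lower of 16 in all kept cells (0.11) and 7 of 14 in the VitA+ gate (0.78). Ccl2 was at 233 and 476 CPM in stellate-marker cells (2.05, 1.73 to 2.44) and 3.26-fold higher in the VitA+ gate. In fibroblast-marker cells it was at 134 and 86.6 (0.648), where 1 chow cell held 531 of 872 UMIs, and without the top cells the ratio was 1.21. Cxcl1, a neutrophil chemokine, was at 285 and 606 in stellate-marker cells (2.12), 710 and 826 in fibroblast-marker cells (1.16) and 1213 and 1790 in smooth-muscle-marker cells (1.48). Cxcl9 had 20 UMIs in all chow cells and 2155 in DEN+WAD (ratio 38.4), but 1 DEN+WAD cell held 1312 of them. Cxcl10 over all kept cells was at 72.6 and 152 CPM (2.09), with 672 of 989 chow UMIs in 1 cell and a ratio of 5.99 without the top cells. The homeostatic chemokine Cxcl12 was at 4600 and 4676 CPM in fibroblast-marker cells and 4110 and 4424 in stellate-marker cells.

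NF-kB and acute phase genes had 3 of 9 members past 2-fold higher in stellate-marker cells (median log2 0.66), 2 of 9 in smooth-muscle-marker cells (0.52), 2 of 11 in fibroblast-marker cells (0.04), 3 of 11 in all kept cells (0.39) and 1 of 10 in the VitA+ gate (0.35). Nfkbia, the inhibitor that NF-kB itself induces, was at 206 and 479 CPM in stellate-marker cells, 366 and 624 in smooth-muscle-marker cells and 355 and 359 in fibroblast-marker cells. The adhesion molecule Vcam1 was at 117 and 234 CPM in smooth-muscle-marker cells and 166 and 255 in fibroblast-marker cells. The protease inhibitor gene Serpina3g had 0 UMIs in chow smooth-muscle-marker cells and 21.2 CPM in DEN+WAD, at least 30.9-fold higher against a floor of 3 UMIs. In the VitA+ gate it was 14.8-fold higher. Saa3 in fibroblast-marker cells had a ratio of 13.9, but 170 of 176 DEN+WAD UMIs were in 1 cell and the ratio without the top cells was 0.593.

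The 2 metallothioneins, which bind zinc and copper and respond to metals, glucocorticoids and oxidative stress, were higher in DEN+WAD. Mt2 (ENSMUSG00000031762; chr8:94172664-94173568, plus strand) was at 64.9 and 187 CPM in fibroblast-marker cells, 69.2 and 160 in stellate-marker cells (2.31, 1.70 to 3.22), 10.3 and 38.8 in smooth-muscle-marker cells (3.77, 2.70 to 5.36) and 82.8 and 201 in the VitA+ gate (2.43). In the DEN+WAD smooth-muscle-marker cells 1 cell held 23.5% of the Mt2 UMIs. Mt1 was at 488 and 1139 CPM in fibroblast-marker (2.33), 361 and 907 in stellate-marker (2.51) and 187 and 299 in smooth-muscle-marker cells (1.60). They belong to the list of ethanol oxidation and antioxidant genes, which had 2 of 18 members past 2-fold higher in fibroblast-marker cells (Mt1 and Mt2, median log2 -0.01), 2 higher and 1 lower of 17 in stellate-marker cells (0.01), 1 of 17 higher in smooth-muscle-marker cells (-0.12), 3 higher and 1 lower of 17 in all kept cells (0.06), and 1 higher and 1 lower of 17 in the VitA+ gate (0.22). The aldehyde dehydrogenase Aldh2 was at 611 and 580 CPM in fibroblast-marker cells and 1070 and 943 in stellate-marker cells. The superoxide dismutase Sod1 was at 159 and 101 in fibroblast-marker cells, and Gpx3 at 126 and 42.5 in stellate-marker cells.

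Genes of fatty acid and sterol metabolism had list medians below 0 in each set of cells. Sterol synthesis genes are switched on by SREBP2 when the cell is short of cholesterol and fall when it is supplied. In fibroblast-marker cells 5 of 15 were past 2-fold lower and 0 higher (median log2 -0.58), in smooth-muscle-marker cells 5 of 17 lower and 1 higher (-0.52), in stellate-marker cells 3 of 14 lower (-0.38), in all kept cells 4 of 16 lower (-0.76), and in the VitA+ gate 0 of 11 (-0.34). Insig1 (ENSMUSG00000045294; chr5:28071363-28078662, plus strand) was at 47.7 and 18.7 CPM in fibroblast-marker, 26.1 and 7.53 in smooth-muscle-marker and 35.4 and 10.8 in stellate-marker cells. The synthase Hmgcs1 (ENSMUSG00000093930; chr13:119690379-119708260, plus strand) was at 40.6 and 20.5 CPM in fibroblast-marker cells (0.505, 0.414 to 0.615), 43.7 and 20.3 in smooth-muscle-marker cells (0.465) and 25.3 and 17.9 in stellate-marker cells (0.708, 0.422 to 1.28). Scd2 was at 93.1 and 36.3 CPM in smooth-muscle-marker cells (0.390, 0.322 to 0.469), 106 and 58.7 in stellate-marker cells (0.552, 0.427 to 0.724) and 83.8 and 62.3 in the VitA+ gate (0.743). Scd1, its paralog, had low levels and went the other way in smooth-muscle-marker cells (6.87 and 15.1 CPM), and Lpl, the lipase that Angptl4 inhibits, was at 1223 and 1349 in fibroblast-marker cells.

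**Figure D4:**
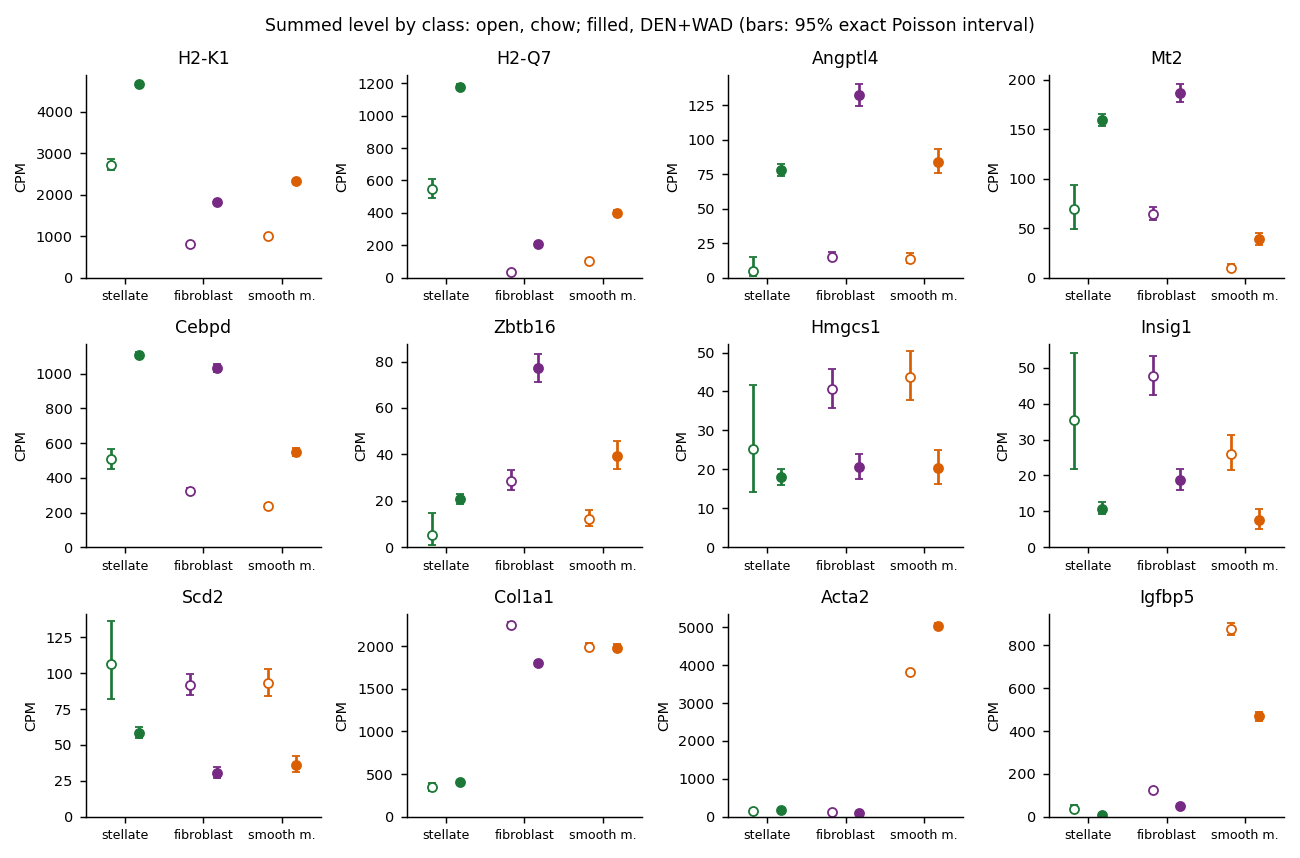
Summed levels in CPM (y axis, linear from 0) of 12 genes in stellate-, fibroblast- and smooth-muscle-marker cells, open for chow and filled for DEN+WAD, with exact Poisson 95% intervals for counting error. H2-K1, Mt2 and Cebpd lie higher and Insig1, Hmgcs1 and Scd2 lower in DEN+WAD in the 3 classes, while Col1a1 differs little in smooth-muscle-marker cells (1989 in chow, 1978 in DEN+WAD).

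Heat-shock genes encode chaperones, and they also respond to tissue dissociation. They had 2 of 14 members past 2-fold higher in fibroblast-marker cells (median log2 0.57), 4 of 14 higher in smooth-muscle-marker cells (0.63), 1 of 14 lower in stellate-marker cells (-0.12), 6 of 14 higher in all kept cells (0.94), and 0 of 14 in the VitA+ gate (-0.25). Hspa1a was at 3759 CPM in chow and 3281 in DEN+WAD in stellate-marker cells and at 5286 and 4344 in the VitA+ gate, far above its levels in the other classes. Hspa8 was at 981 and 1607 CPM in fibroblast-marker and 841 and 1712 in smooth-muscle-marker cells but 2885 and 2777 in stellate-marker cells. Immediate-early genes, which dissociation also induces, had 0 of 22 members past 2-fold in fibroblast-marker cells (median 0.25), 0 of 20 in smooth-muscle-marker cells (0.07), 1 of 20 higher in stellate-marker cells (0.33; Nr4a2, 20.2 and 71.7 CPM), 0 of 21 in all kept cells (0.33) and 1 of 20 in the VitA+ gate (-0.11). The part of cell handling in these values was not tested.

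The list of fibrillar and associated collagens had 0 members past 2-fold in all kept cells (13 measured, median log2 -0.48), stellate-marker (12, -0.17), fibroblast-marker (13, -0.32) and smooth-muscle-marker cells (13, -0.09), and 1 of 12 higher in the VitA+ gate (0.01). Col1a1, the gene behind the sort, was at 1935 CPM in chow and 1128 in DEN+WAD over all kept cells (0.583). Within fibroblast-marker cells it was at 2244 and 1796 (0.80, 0.782 to 0.819), within smooth-muscle-marker cells at 1989 and 1978 (0.995), and within stellate-marker cells at 348 and 411 (1.18, 1.03 to 1.37). In the VitA+ gate it was at 95.9 and 229 (2.39, 2.19 to 2.60). Col3a1, a gene of the cell rule, was at 2932 and 2353 CPM in fibroblast-marker and 1355 and 1298 in stellate-marker cells, and Col6a3 at 832 and 540 in fibroblast-marker cells. Col6a5 and Col6a6 are not in the list. Col6a5 was past 2-fold lower in each class, as given above, and Col6a6 was at 104 and 21.9 CPM over all kept cells (0.210). The pooled Col1a1 ratio below 1 thus stood beside smaller shares of fibroblast- and smooth-muscle-marker cells in DEN+WAD, and within classes its ratios lay between 0.80 and 1.18.

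Basement membrane genes had 0 of 14 members past 2-fold in fibroblast-marker cells (median log2 -0.16), 1 of 14 lower in smooth-muscle-marker cells (-0.05; Col4a5, 75.7 and 31.9 CPM), 1 of 11 lower in stellate-marker cells (-0.25), 1 of 14 lower in all kept cells (-0.40) and 0 of 10 in the VitA+ gate (-0.34). Matrix glycoproteins and elastic fibre genes had 1 of 20 higher in fibroblast-marker cells (-0.19), 3 of 20 lower in smooth-muscle-marker cells (-0.17), 1 higher and 3 lower of 18 in stellate-marker cells (0.10), 2 higher and 5 lower of 20 in all kept cells (-0.67) and 1 of 17 higher in the VitA+ gate (-0.07). Efemp1, which encodes fibulin-3, was at 76.0 and 159 CPM in fibroblast-marker cells (2.09, 1.88 to 2.32) and 569 and 853 in stellate-marker cells. Spon1, which encodes F-spondin, was at 350 and 213 CPM in fibroblast-marker and 73.7 and 24.2 in smooth-muscle-marker cells (0.328). Sparc was at 3973 and 7556 CPM in smooth-muscle-marker cells. Small leucine-rich proteoglycans had 0 of 9 members past 2-fold in fibroblast-marker cells (0.04), 1 of 8 lower in smooth-muscle-marker cells (-0.31; Ogn, 576 and 228 CPM), 1 of 7 lower in stellate-marker cells (0.07), 1 higher and 3 lower of 8 in all kept cells (-0.48; the higher one is Dcn, a gene of the cell rule) and 1 of 6 lower in the VitA+ gate (-0.18). Bgn, which encodes biglycan, was at 2826 and 3707 CPM in fibroblast-marker and 2147 and 3217 in smooth-muscle-marker cells.

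Genes that process and cross-link collagen had 0 of 16 members past 2-fold in fibroblast-marker cells (median log2 -0.11) and 0 of 16 in smooth-muscle-marker cells (0.03), 1 higher and 2 lower of 16 in stellate-marker cells (0.24), 2 of 16 lower in all kept cells (-0.06) and 0 of 14 in the VitA+ gate (-0.03). Pcolce, an enhancer of procollagen cleavage, was at 542 and 818 CPM in fibroblast-marker (1.51), 381 and 578 in smooth-muscle-marker (1.52), 513 and 647 in stellate-marker cells (1.26) and 469 and 669 in the VitA+ gate. Loxl1, a cross-linking oxidase, was at 45.5 and 94.0 CPM in stellate-marker cells (2.06, 1.41 to 3.14), and Lox at 90.3 and 55.0 in fibroblast-marker cells. Metalloproteinases and their inhibitors had 1 of 12 higher in fibroblast-marker cells (-0.15), 2 of 12 lower in smooth-muscle-marker cells (-0.29), 1 of 8 higher in stellate-marker cells (0.54), 2 of 12 lower in all kept cells (-0.67) and 3 of 10 higher in the VitA+ gate (0.17). Timp1, an inhibitor that marks fibrosis, was at 43.5 and 89.9 CPM in fibroblast-marker cells (2.07, 1.80 to 2.38), 10.1 (6 UMIs) and 43.1 in stellate-marker cells (4.25, 1.94 to 11.6) and 1.62 and 64.5 in the VitA+ gate (39.9, 21.0 to 87.3). In smooth-muscle-marker cells it was at 70.5 and 27.4, where 1 chow cell held 233 of 308 UMIs, and the ratio without the top cells was 1.42. Mmp2, a gelatinase, was at 281 and 319 CPM in fibroblast-marker and 54.0 and 107 in stellate-marker cells (1.98, 1.40 to 2.90), but at 75.03 and 59.2 in the VitA+ gate.

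Contractile and cytoskeletal genes had 0 of 13 members past 2-fold in fibroblast-marker cells (median log2 0.06), 1 of 15 lower in smooth-muscle-marker cells (0.14), 0 of 13 in stellate-marker cells (-0.09), 4 of 15 lower in all kept cells (-0.49) and 1 of 12 higher in the VitA+ gate (0.28). Acta2, smooth muscle actin and the usual marker of activated stellate cells, was at 1309 CPM in chow and 756 in DEN+WAD over all kept cells (0.577). It was at 3817 and 5041 in smooth-muscle-marker cells (1.32, 1.30 to 1.35), 114 and 112 in fibroblast-marker cells and 159 and 176 in stellate-marker cells (1.11, 0.902 to 1.38). In the VitA+ gate it was at 3.59 and 59.2 (16.5, 10.7 to 27.0). Cnn1, which encodes calponin, was at 202 and 78.0 in smooth-muscle-marker cells (0.387, 0.340 to 0.439). Vim was at 1865 and 2738 CPM in fibroblast-marker, 2342 and 3444 in smooth-muscle-marker and 911 and 1348 in stellate-marker cells.

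TGF-beta pathway genes had 0 of 13 members past 2-fold in fibroblast-marker cells (median log2 -0.27), 1 higher and 1 lower of 13 in smooth-muscle-marker cells (-0.34), 2 of 13 higher in stellate-marker cells (0.06), 1 higher and 1 lower of 13 in all kept cells (-0.40) and 0 of 12 in the VitA+ gate (-0.20). Ctgf was at 540 and 1297 CPM in smooth-muscle-marker cells (2.40, 2.29 to 2.52) and 782 and 1084 in fibroblast-marker cells (1.39). Tgfbi was at 565 and 1892 over all kept cells (3.35), and at 1.68, 1.18 and 1.88 times the chow level in stellate-, fibroblast- and smooth-muscle-marker cells. Targets of YAP and TEAD, the pathway the study followed in tumour-bearing liver, had 0 of 10 past 2-fold in fibroblast-marker cells (-0.32), 2 of 13 higher in smooth-muscle-marker cells (-0.20; Ctgf and Ankrd1, the latter at 73.9 and 155 CPM), 1 of 11 higher in stellate-marker cells (-0.25), 0 of 11 in all kept cells (-0.40) and 0 of 11 in the VitA+ gate (-0.36). The called members were thus Ctgf and Ankrd1, and the medians of the list were below 0. Its summed level went the other way, at 2790 CPM in chow and 3665 in DEN+WAD over all kept cells. It was 1911 and 3016 in stellate-marker, 3054 and 3645 in fibroblast-marker and 2591 and 3669 in smooth-muscle-marker cells, and 2300 and 2531 in the VitA+ gate. A sum follows the members with most UMIs.

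Wnt pathway genes had 1 of 13 members past 2-fold higher in fibroblast-marker cells (median log2 -0.25), 4 of 13 lower in smooth-muscle-marker cells (-0.55), 0 of 9 in stellate-marker cells (-0.18), 1 higher and 3 lower of 13 in all kept cells (-0.68) and 1 of 9 lower in the VitA+ gate (-0.27). The ligand Wnt5a was at 65.7 and 26.2 CPM in smooth-muscle-marker cells, and the feedback inhibitor Axin2 at 18.1 and 7.76. Wif1, a secreted Wnt inhibitor, had 8 chow and 219 DEN+WAD UMIs in fibroblast-marker cells (21.7, 10.8 to 50.8), and 3 DEN+WAD cells held 50% of them. Growth factors and receptors had 1 higher and 1 lower of 20 in fibroblast-marker cells (-0.14), 1 higher and 1 lower of 19 in smooth-muscle-marker cells (-0.39), 1 higher and 3 lower of 18 in stellate-marker cells (-0.01), 3 higher and 6 lower of 20 in all kept cells (-0.61) and 1 higher and 2 lower of 15 in the VitA+ gate (-0.05). Igfbp5 (ENSMUSG00000026185; chr1:72857932-72874884, minus strand) was at 125 and 52.3 CPM in fibroblast-marker cells (0.420, 0.373 to 0.472) and 876 and 470 in smooth-muscle-marker cells (0.536). Igfbp3 was at 2620 and 1058 in stellate-marker (0.404, 0.384 to 0.426), 2814 and 2074 in fibroblast-marker cells (0.737) and 2685 and 1246 in the VitA+ gate (0.464).

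The study asked about tumour-promoting and oxylipin genes in these cells, and they are given here by class. Gas6, the ligand of the AXL receptor, was at 1835 and 960 CPM over all kept cells (0.523) but at 2969 and 3275 in fibroblast-marker cells (1.10, 1.08 to 1.12), 559 and 348 in smooth-muscle-marker cells (0.622) and 59.0 and 84.4 in stellate-marker cells (1.43, 1.02 to 2.06). Cyp1b1 (ENSMUSG00000024087; chr17:79701537-79715061, minus strand), a cytochrome P450 monooxygenase, was at 69.4 and 47.4 CPM over all kept cells (0.683), 91.7 and 74.0 in fibroblast-marker (0.808, 0.720 to 0.905) and 44.2 and 24.6 in smooth-muscle-marker cells (0.558). In stellate-marker cells it had 2 chow UMIs and was at 17.4 CPM in DEN+WAD (5.14, 1.41 to 42.7). Its pooled and fibroblast-marker ratios were below 1 and its stellate-marker ratio above 1. Ptgs2, the inducible cyclooxygenase, was at 187 and 156 CPM in fibroblast-marker cells (0.834), 12.1 and 19.2 in smooth-muscle-marker cells (1.58), and in stellate-marker cells at 4.73 in DEN+WAD with 0 UMIs in chow, where both lay under the chow floor of 3 UMIs. Ptgs1 was at 3.82 and 3.74 over all kept cells (0.981, 0.710 to 1.38). The prostanoid, oxylipin and AhR list had 1 of 7 higher in fibroblast-marker cells (-0.04), 0 of 6 in smooth-muscle-marker cells (0.21), 1 of 6 higher in stellate-marker cells (0.03), 1 higher and 1 lower of 8 in all kept cells (-0.53) and 0 of 4 in the VitA+ gate (0.14).

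Ereg was at 36.5 and 32.6 CPM in fibroblast-marker cells (0.895, 0.749 to 1.07), Vegfa at 95.8 and 94.3 (0.984, 0.885 to 1.10) and the hyaluronan receptor Cd44 at 65.2 and 60.7 (0.931, 0.817 to 1.06), each with an interval that included 1. In stellate-marker cells Ereg was at 27.0 and 39.6 CPM (1.47, 0.895 to 2.58), Vegfa at 54.0 and 46.6 (0.864, 0.607 to 1.27) and Cd44 at 18.6 and 29.2 (1.57, 0.872 to 3.18), on 16, 32 and 11 chow UMIs, and these intervals included 1 as well. In smooth-muscle-marker cells Ereg was at 58.8 and 53.4 (0.908, 0.757 to 1.09). In the same cells Vegfa was at 73.7 and 38.1 (0.517, 0.426 to 0.625) and Cd44 at 51.9 and 72.6 (1.40, 1.17 to 1.66). Lrat, which stores vitamin A as esters and is one of the stellate markers, was at 407 and 718 CPM over all kept cells. The portal fibroblast markers Thy1 (31.0 and 17.5) and Fbln2 (25.8 and 10.2) were lower over all kept cells. Retinoid storage and signalling genes had 1 of 7 lower in fibroblast-marker cells (median log2 0.29; the marker Lrat), 0 of 8 in smooth-muscle-marker cells (0.09), 1 of 8 higher in stellate-marker cells (0.04), 2 of 8 higher in all kept cells (0.61) and 0 of 8 in the VitA+ gate (0.06).

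Complement genes had 0 of 11 members past 2-fold in fibroblast-marker cells (median log2 0.11), 1 of 10 lower in smooth-muscle-marker cells (-0.01; C3, 231 and 80.8 CPM), 0 of 9 in stellate-marker cells (0.44), 2 higher and 2 lower of 11 in all kept cells (-0.22) and 1 of 8 lower in the VitA+ gate (-0.33). C3 was at 1005 and 977 CPM in fibroblast-marker cells, and the C1 inhibitor Serping1 at 1507 and 2303. Genes of p53, senescence and the cell cycle had 0 of 11 past 2-fold in fibroblast-marker (-0.29) and 0 of 11 in smooth-muscle-marker cells (-0.17), 2 higher and 1 lower of 11 in stellate-marker cells (-0.41; Cdkn1a and Mdm2 higher, Igfbp3 lower), 1 of 11 lower in all kept cells (-0.20) and 2 of 11 lower in the VitA+ gate (-0.03). Transcription factors of stellate cells and fibroblasts had 2 of 17 higher in fibroblast-marker cells (-0.01), 1 of 14 lower in smooth-muscle-marker cells (-0.04), 1 of 13 lower in stellate-marker cells (0.00), 2 higher and 2 lower of 15 in all kept cells (0.16) and 0 of 12 in the VitA+ gate (-0.29). Runx1 was at 5.83 and 16.6 CPM (2.85, 1.98 to 4.20) and Meox1 at 5.83 and 15.05 (2.58, 1.78 to 3.82) in fibroblast-marker cells, and Osr1 at 38.9 and 8.90 in smooth-muscle-marker cells.

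**Figure D5:**
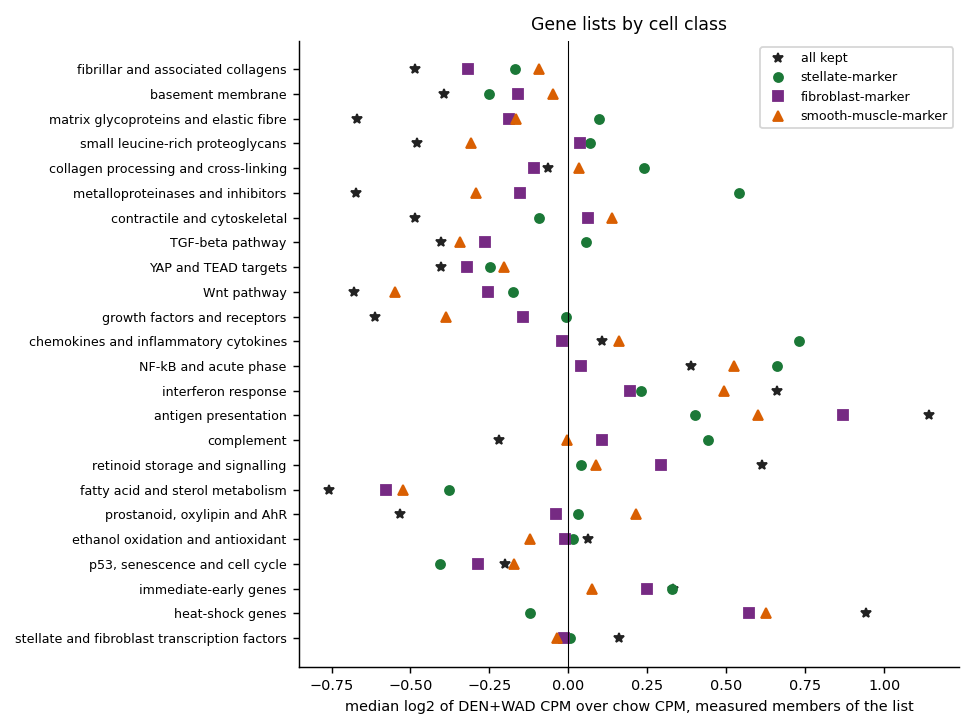
Median log2 of DEN+WAD over chow CPM (x axis) of the measured members of each gene list (y axis), with 1 symbol each for all kept, stellate-marker, fibroblast-marker and smooth-muscle-marker cells. Antigen presentation lies at 0.87 in fibroblast-marker cells, and fatty acid and sterol metabolism lies between -0.76 and -0.38 in the 4 sets drawn.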

How the data were processed

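Cells from livers of Col1a1 reporter mice were captured with 10x Genomics 3′ chemistry, which the labels call v3.1 in 1 field and v2 in another. The authors state that reads were aligned to mm10 with Cell Ranger 3.1.0, and they deposited raw UMI counts of 31053 genes per barcode, which were used as deposited. The deposited counts of the VitA-Col1a1- library name version 6.1.2, and those of the other libraries 3.1.0. The VitA-Col1a1+ libraries held 47633435 UMIs in 2729 barcodes (DEN+WAD) and 14996899 in 668 (chow), and the lowest barcode had 506 and 510. The minimum of 2000 UMIs left 2623 and 647 barcodes, the mesenchymal genes 2158 and 606, and the absence of Pecam1, Ptprc and Epcam 2062 and 590. No doublet caller was run. Cells with a UMI of Pecam1, Ptprc or Epcam were left out, and the 5% of cells with most UMIs were left out as an alternative. Kept cells could hold UMIs of other markers, such as the hepatocyte gene Ahsg in 195 of 2062 DEN+WAD and 83 of 590 chow cells.

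UMIs were summed by library and class and divided by the class total (CPM, counts per 1000000). Each side was 1 library, so neither an edgeR nor a DESeq2 test was run and no p-value is given. Levels carry exact Poisson and ratios exact conditional binomial 95% intervals, both of counting error only. A gene with a mean of at least 10 CPM was called at a 2-fold ratio, and a library with 0 UMIs was set to a floor of 3. Named genes were the 15 highest and 15 lowest ratios in all kept cells and the 10 highest and 10 lowest per class (mean of at least 50 CPM), the highest and lowest member of each list, and the study's genes. A few genes that these rules name are not reported here, though they stay in every count. The 35 lists hold 535 entries of 520 symbols, 517 of which matched 1 gene. The members, classes and lists were chosen with earlier results of these data known. In each class of both libraries, 3 stellate, 1 fibroblast and 1 smooth muscle list gene stood among the top 10 genes by fold of their class, and 0 genes of another class list. The classes were cut on these same lists, so this restates the cut and does not test it. Coordinates are from GENCODE M21 on GRCm38, the build mm10 names, where 30934 of the 31053 identifiers were found, and promoters are from RefSeq on GRCm38.p6. Alternatives were other scalings, filters, thresholds and class rules. The calculation was tested on simulated data, where lowered genes near the 10 CPM minimum left the set tested. Python 3.11.15, numpy 2.4.6, pandas 2.3.3, scipy 1.17.1, matplotlib 3.10.9, R 4.3.3 and edgeR 4.0.16 (TMM factors only) were used, with seed 7.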

Additional observations from a re-analysis of the deposited data

Results flagged for a closer look

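Among the genes named by rule, 5 had ratios past 2-fold in opposite directions in the pairs screened. The differences between those ratios were not tested, since each side was 1 library. The screen set the stellate-, fibroblast- and smooth-muscle-marker cells against each other, and the stellate-marker cells against those of the VitA+ gate. Genes of the marker lists were left out. H2-Q4, given above as lower in the VitA+ gate, is not named by rule and lay outside the screen.

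Cd74, the class II invariant chain of antigen-presenting cells, had log2 ratios of -2.94 in stellate-marker, 3.19 in fibroblast-marker and -2.82 in smooth-muscle-marker cells. Single cells held much of this RNA: 40 of 40 chow UMIs in the stellate-marker cells, 287 of 289 chow UMIs in the smooth-muscle-marker cells and 174 of 404 DEN+WAD UMIs in the fibroblast-marker cells. Timp1, the metalloproteinase inhibitor, had 2.09 in stellate-marker and 1.05 in fibroblast-marker but -1.36 in smooth-muscle-marker cells, where 1 chow cell held 233 of 308 UMIs.

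Hspb1, a small heat-shock protein gene, had a log2 ratio of -1.28 in stellate-marker cells (2379 CPM in chow, 980 in DEN+WAD) and 1.08 in smooth-muscle-marker cells (418 and 886). Gstp1, a glutathione transferase, had 1.93 in the VitA- stellate-marker cells and -2.37 in those of the VitA+ gate. Nme2, a nucleoside diphosphate kinase, had 1.34 and -1.71 in the same comparison. Gstp1 and Nme2 have near-identical copies in the genome, so their counts are uncertain.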

How the results depend on the processing

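No paired analysis was possible because each side was 1 library, and for the same reason no library could be left out. In all, 18 settings were compared, and those that bear on ratios were applied to 417 ratios of 215 genes picked by the naming rules. Of these ratios, 248 were past 2-fold. Ratios of list members given only as examples, such as H2-K1 and Hmgcs1, and ratios of the VitA+ gate were not put through the settings. Over the named ratios, 4692 alternative values stayed inside the counting interval, 518 fell outside it and 11, of ratios past 2-fold, changed sign, while of the alternative counts and shares 130 stayed within 1.5 times the reported count or the share's interval and 34 moved. The settings differed widely in this. With mitochondrial and ribosomal protein genes out of the total, 417 named ratios stayed inside their counting interval and 0 fell outside it. TMM scaling left 311 inside and moved 106 outside. The higher smooth muscle minimum left 221 inside, moved 95 outside and changed the sign of 1. Equal makeup, which applies to all kept cells only, left 10 inside, moved 83 outside and changed the sign of 4. Fbln2, Osr1 and Ptgs2 in stellate-marker cells gave no ratio, being at or under the floor in both libraries. The causes of the changes below were not tested, except that fewer or more genes enter under another minimum. TMM scaling moved the median of all genes by 0.15 on the log2 scale (all kept cells). The higher share of genes past 2-fold went from 36.4 to 51.6% in all kept cells (261 higher, 245 lower), 46.1 to 56.7% in stellate-marker (275, 210), 38.2 to 49.7% in fibroblast-marker (72, 73) and 26.8 to 40.0% in smooth-muscle-marker cells (116, 174).

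Without a low-value filter, 977 genes were higher and 1726 lower in all kept cells, 688 and 1078 in stellate-marker, 646 and 805 in fibroblast-marker and 482 and 1296 in smooth-muscle-marker cells. With a mean of at least 50 CPM these were 105 and 125, 35 and 42, 25 and 27, and 40 and 52, and at 3-fold 100 and 98, 61 and 74, 21 and 23, and 31 and 62, in the same order. At equal makeup they were 64 and 119 in all kept cells. A smooth muscle minimum of 12 per 10000 gave 156 and 363 in smooth-muscle-marker cells, which were then 5.141% of DEN+WAD and 21.19% of chow cells. With each cell thinned to 2000 UMIs the fibroblast-marker class held 41.53% of chow cells. With thresholds of 0.7 and 0.3 it held 21.97% of DEN+WAD and 52.54% of chow cells, and the stellate-marker class 54.7% of DEN+WAD cells.

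The log2 ratios past 2-fold that changed sign were those of Cd74 in smooth-muscle-marker cells (5.43 without the 5% of cells with most UMIs, 2.66 without the top cell of each library) and in stellate-marker cells (0.42 without the top cells), of Timp1 in smooth-muscle-marker cells (0.25 without the 5% of cells with most UMIs, 1.28 at the higher smooth muscle minimum, 0.51 without the top cells), and of Saa3 in fibroblast-marker cells (-0.75 without the top cells). At equal makeup they were Cfb (-0.42), Colec10 (-0.49), Reln (-0.042) and Tmem56 (-0.19) in all kept cells. Of these, Colec10, Reln and Tmem56 help define the classes that were weighted. Ccl2 in fibroblast-marker cells, within 2-fold and outside the named set, went from -0.63 to 0.28 without the top cells. The 31 chow stellate-marker cells set the widest intervals.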
